A study of Rattus norvegicus with 34 samples.

Results

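The distal end of rat chromosome 7 was examined as the last 730 windows of 1 kb on that chromosome in the deposited tables, chr7:145000001-145730000 in the Rnor_6.0 build, out of 2782040 windows in all. The segment was chosen by values of these same libraries, because windows near its end had more signal in both ifosfamide groups than in F1 control. The differences from F1 control given here are therefore descriptions, and no test is read from them. The difference between the ifosfamide groups did not choose the segment, although both groups entered the comparisons that did.

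The data came from sperm of outbred Hsd: Sprague Dawley SD rats. Male rats of the F0 generation received 3 injections of 8.5 mg/kg ifosfamide, an alkylating chemotherapy drug, or 1.1 mL/kg PBS (phosphate-buffered saline), on days 26, 29 and 32 of age, and untreated F1 and F2 generations were bred from them. The groups used are 6 F1 pools of the PBS lineage (F1 control), 6 F1 pools of the ifosfamide lineage and 6 F2 pools of the ifosfamide lineage. F1 parents were bred at 80 to 90 days of age. Ages at sperm collection were not used here.

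The labels give 3 control and 5 ifosfamide males in F0, so all pools of a lineage descend from few founders. An F1 pool held sperm DNA of 3 to 4 males and an F2 ifosfamide pool that of 8 or 9. F2 and F1 ifosfamide thus differ in generation and males per pool together, and F2 ifosfamide and F1 control in lineage as well. The F2 control pools of the series were not analysed here, so these cannot be told apart. The labels name 43 F2 ifosfamide males, while 6 pools of at least 8 would hold 48, so some males may be in more than 1 pool. They name 18 F1 ifosfamide and 25 F1 control males, each for 6 pools, so males per pool may differ between the F1 groups too. Which males or litters entered which pool is not given, and the p-values measure only the spread between these pools.

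MeDIP-seq (methylated DNA immunoprecipitation sequencing) pulls down DNA fragments with an antibody against methylated cytosine and counts the reads they give. The signal of a window increases with its methylation, with its density of methylatable sites and with its number of copies in the genome. Mature sperm DNA is highly methylated over most of the genome outside promoters and CpG-rich stretches. The source name of every sample is sperm, and no library of unprecipitated DNA was analysed here, so methylation and copy number cannot be told apart in these values. No annotation of this build was used here, so windows are given by position without genes.

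Total counts were 23336048 to 39440265 per library, of which 5711 to 11077 fell in the segment. All 18 pools had 0 counts in 101 of the 730 windows, 230 more had a mean under 5 counts, and 399 had a mean of at least 5. The median window of the segment had 0.168 CPM (counts scaled to library size with edgeR's TMM factors) in F1 control, against 0.214 CPM over the genome. Each read entered 1.16 to 1.25 windows on average, which ties adjacent windows to each other, and intervals from counts cover counting error only.

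The higher signal of the ifosfamide groups did not run along the whole segment but lay in a pair of separate stretches. A 10 kb bin is called raised here where the log2 ratio to F1 control of the mean summed CPM was at least 0.3 in both ifosfamide groups. Of 72 bins of the segment with a ratio, 20 were raised, where 0.461% of 274319 such bins over the genome were. The longest run of raised bins, allowing 1 bin between raised ones, was chr7:145550001-145680000, a distal stretch of 130 kb. The second longest was chr7:145280001-145360000, a proximal stretch of 80 kb, in which all 8 bins were raised. The remaining raised bin, at 145510001, stood between them.

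**Figure D1:**
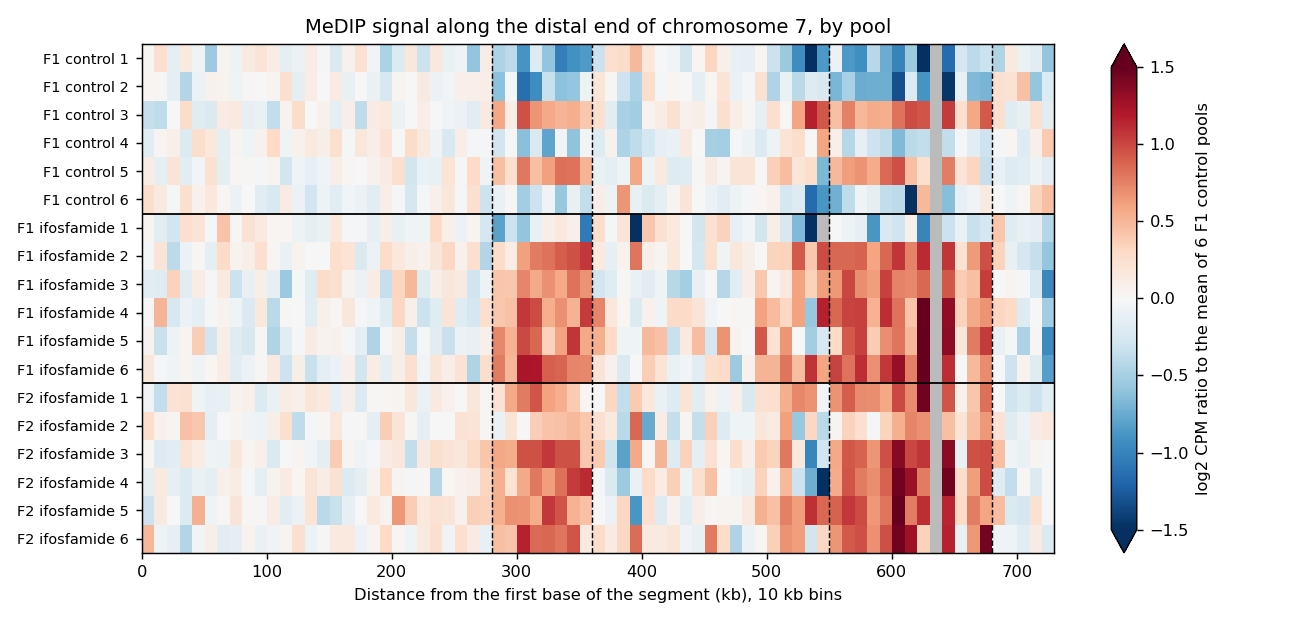
Each row is a pool and each column a 10 kb bin, placed by its distance in kb from the first base of the segment. Colour is the log2 ratio of the pool's summed CPM to the mean of the 6 F1 control pools, grey marks bins with no ratio or a pool at 0, and dashed lines bound the proximal and distal stretches. F1 control pools 3 and 5 are red in most bins of both stretches and F1 ifosfamide pool 1 is not, while control pool 5 is at -0.34 at 670 kb. The 280 kb before the proximal stretch are mostly paler, with single pools at up to 0.65 and down to -0.59 in a bin.

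Before the proximal stretch both ifosfamide groups stayed near F1 control. In the 28 bins there the log2 ratio ran from -0.17 to 0.19 in F1 ifosfamide and from -0.08 to 0.21 in F2 ifosfamide. The first raised bin, at 145280001, had ratios of 0.38 and 0.39 in F1 and F2 ifosfamide. From 145300001 to 145350000 the ratios lay at 0.59 to 0.77 in F1 ifosfamide and 0.73 to 0.79 in F2 ifosfamide. In the bin at 145360001 they dropped to 0.30 and 0.15, and in that at 145370001 to 0.04 and 0.01.

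Between the stretches the ratios were uneven. In the 12 bins from 145370001 to 145490000 they ran from -0.08 to 0.22 in F1 ifosfamide and from -0.19 to 0.39 in F2 ifosfamide. The highest F2 values there, 0.39 at 145390001 and 0.34 at 145450001, had F1 values of -0.04 and 0.09. From 145490001 to 145530000 they were 0.29 to 0.42 and 0.27 to 0.65. Bins at 145530001 and 145540001 held only 102 and 87 counts over the 18 pools.

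The distal stretch opened after 9 windows without counts, with its first counts in the window at 145555001 and its last in the window that ends at 145678000. Its ratios were 0.65 and 0.59 in F1 and F2 ifosfamide in the first bin, 0.82 and 1.29 in the bin at 145600001 and 1.00 and 1.11 in that at 145640001. The bin at 145630001 had no counts in any pool. The bin at 145650001 was not raised, at 0.18 and 0.11, although it lay between raised bins. The change inside the stretch was abrupt on the scale of windows. The window at 145648001 had 0.324 CPM in F1 control and 0.526 and 0.592 CPM in F1 and F2 ifosfamide, while that at 145651001, with 663 counts, had 1.17, 1.20 and 1.22 CPM. After the stretch the ratios were 0.18 and 0.17 at 145680001 and between -0.19 and 0.01 in both groups from 145690001 to 145720000.

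**Figure D2:**
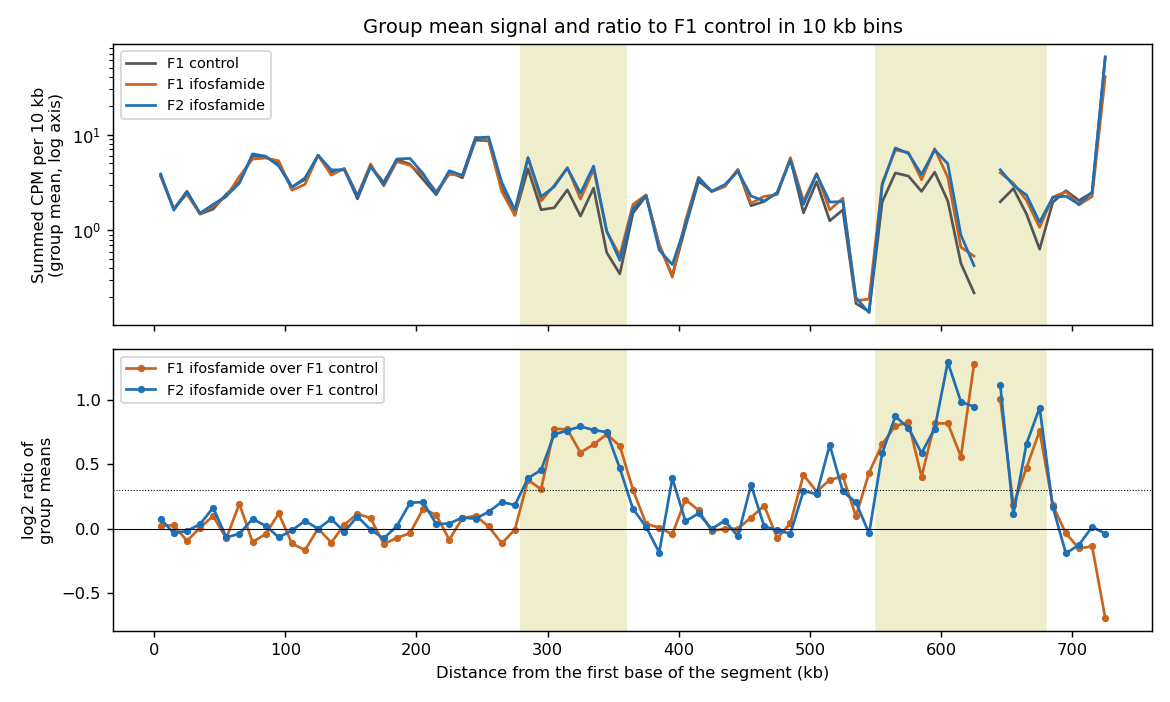
The upper panel shows the summed CPM per 10 kb bin as group means on a log axis, and the lower panel the log2 ratio of each ifosfamide mean to F1 control, along the distance in kb from the first base of the segment. Shading marks the proximal and distal stretches and the dotted line the ratio of 0.3. Both ratios lie above 0.3 in 19 shaded bins, and the last bin shows the highest signal of the segment, where F1 ifosfamide lay below F1 control.

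The place of the stretches depended on the bin size. With 5 kb bins the longest run was 70 kb, chr7:145295001-145365000, in the proximal stretch, and with 20 kb bins it was 180 kb, chr7:145500001-145680000. Thresholds of 0.2 and 0.4, a least-squares interval and leaving out any 1 of the 18 pools returned the same 130 kb.

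The group means hid a wide and stepped spread among pools. In the distal stretch the summed signal ran from 16.1 CPM, with a median of 21.3, to 39.9 CPM in F1 control. It ran from 22.1 CPM, with a median of 44.8, to 48.1 CPM in F1 ifosfamide, and from 32.0 CPM, with a median of 47.7, to 49.2 CPM in F2 ifosfamide. The groups overlapped, since F1 control reached above the lowest pool of either ifosfamide group. The means were 25.8 ± 11.0, 42.0 ± 9.92 and 44.4 ± 6.56 CPM (SD, n = 6 each).

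On the log2 scale, relative to the mean of F1 control, the pools of the distal stretch stood at a few separate levels. F1 control pools 2 and 1 were lowest, at -0.57 (95% exact Poisson interval -0.70 to -0.45) and -0.54 (-0.68 to -0.40). F1 control pools 6 and 4 followed at -0.18 and -0.16, together with F1 ifosfamide pool 1 at -0.12 (-0.22 to -0.02). F2 ifosfamide pool 2 stood alone at 0.42 (0.32 to 0.51).

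The other 12 pools lay above it. F1 control pools 5 and 3 were at 0.72 (0.64 to 0.80) and 0.74 (0.65 to 0.82), and F2 ifosfamide pool 1 at 0.81 (0.74 to 0.88). F1 ifosfamide pools 5, 3 and 2 were at 0.89, 0.89 and 0.91, and the rest at 0.99 to 1.04, with F2 ifosfamide pool 5 highest (0.96 to 1.12). Of the 17 steps from a pool to the next higher one, 3 were at least 0.3, at 0.36, 0.54 and 0.30. These were also the steps at which the counting intervals of the neighbours did not overlap, and the other 14 were at most 0.08. Within the upper 12 pools the intervals of neighbours overlapped, but those of the lowest and the highest pool did not.

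The proximal stretch placed the pools alike, although it lies 190 kb away. The 6 lowest pools were the same 6 as in the distal stretch. F1 control pools 2 and 1 were at -0.51 (-0.66 to -0.35) and -0.48 (-0.66 to -0.31). F1 ifosfamide pool 1 was at -0.19 (-0.33 to -0.06), beside F1 control pools 4 and 6 at -0.19 and -0.16. F2 ifosfamide pool 2 again stood alone, at 0.30 (0.17 to 0.43), and the other 12 ran from 0.64 in F1 ifosfamide pool 3 to 1.00 in F1 ifosfamide pool 6. Here the steps below and above F2 ifosfamide pool 2 were 0.46 and 0.34, with intervals apart. At the step of 0.29 above F1 control pool 1 the intervals overlapped.

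**Figure D3:**
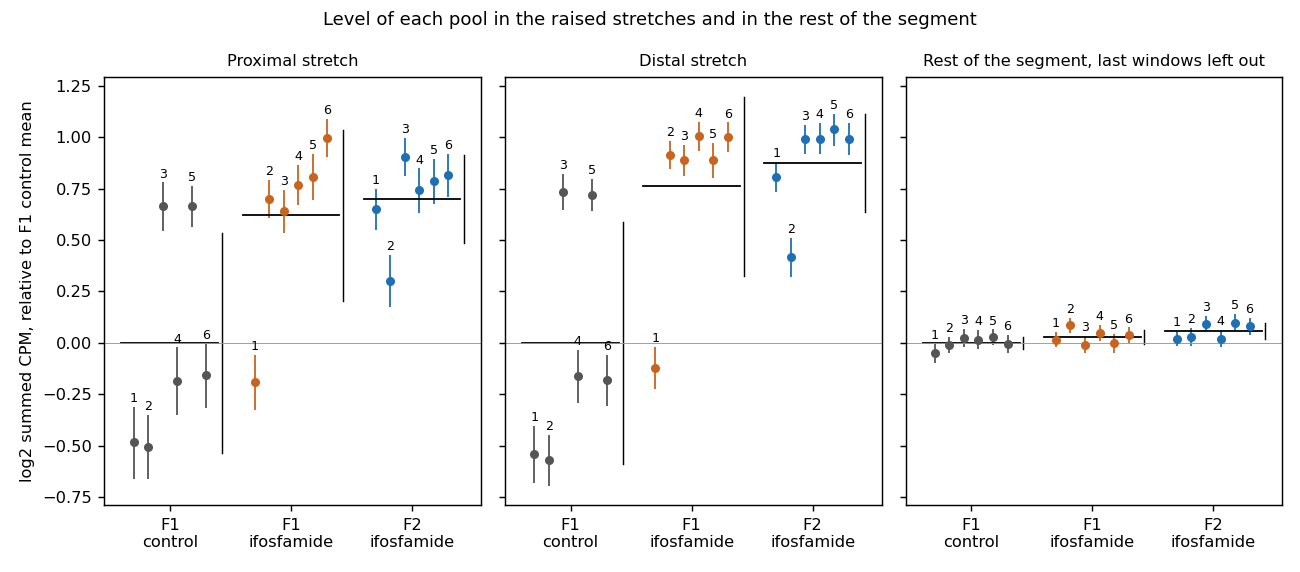
Each point is a pool, numbered within its group, at its log2 summed CPM relative to the mean of F1 control, with its 95% exact Poisson interval. Horizontal lines are group means and vertical black lines 1 SD either side (n = 6). In both raised stretches F1 control pools 3 and 5 lie with most ifosfamide pools and F1 ifosfamide pool 1 with the other controls, while in the rest of the segment all 18 pools lie between -0.05 and 0.10.

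Summed over the other 517 windows before the last 3, the pools lay much closer together, from -0.05 to 0.10, and the intervals of neighbours in the order overlapped. The SD over the 6 control pools was 0.03 there, against 0.59 in the distal and 0.54 in the proximal stretch. Among 10 kb bins with at least 1000 counts, the median SD of log2 CPM over the control pools was 0.64 in 9 bins of the distal stretch, 0.58 in 6 of the proximal stretch and 0.17 in 40 other bins of the segment. Over 206004 such bins of the genome it was 0.17, and 99% of them were at or below 0.38.

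Summed over the part between the stretches, control pools 3 and 5 were again the highest controls, at 0.12 (0.03 to 0.20) and 0.09 (0.02 to 0.17), and control pool 1 the lowest, at -0.08 (-0.17 to 0.02). F1 ifosfamide pool 1 was at 0.00 and F2 ifosfamide pool 2 at -0.02, the latter the lowest of its group. In the bin at 145520001, with 1085 counts, control pools 1 and 2 were at -0.94 and -0.41 and control pool 3 at 0.60. F1 ifosfamide pool 1 and F2 ifosfamide pool 2 were at -0.66 and -0.57 there, while F2 ifosfamide pool 4 was also low, at -0.32. In the bin at 145500001 control pools 1 and 2 were at -0.32 and -0.45 and control pools 3 and 5 at 0.25 and 0.36. Adjoining bins ordered the pools otherwise. At 145490001 control pool 2 was the highest control, at 0.22, and control pool 3 was at -0.13. At 145510001 control pool 4, at 0.21, lay above pool 3, at 0.02, although pools 1 and 5 were the lowest and highest controls. F2 ifosfamide pool 2 was at 0.61 there and not the lowest of its group.

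The mean log2 difference from F1 control in the distal stretch was 0.76 (SE 0.30) in F1 ifosfamide and 0.87 (SE 0.26) in F2 ifosfamide. In the proximal stretch it was 0.62 (SE 0.28) and 0.70 (SE 0.24). Both differences use the same 6 control pools, and the F2 difference takes in generation and males per pool as well as lineage. Without F1 ifosfamide pool 1 the F1 value in the distal stretch was 0.94, without control pool 3 it was 0.91, and without control pool 2 it was 0.65.

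In the level of either stretch, F2 and F1 ifosfamide differed by less than the spread of the pools. Bins counted as raised only where both groups were, which favours a small difference between them. The test therefore cannot show that the groups are alike. In the distal stretch the difference was 0.11 (SE 0.20), with an exact two-sided permutation p of 0.626 over 924 splits of 12 pools and an adjusted p of 0.781 over 7 stretches tested. In the proximal stretch it was 0.08 (SE 0.19), with an exact permutation p of 0.736 and an adjusted p of 0.781. Without F1 ifosfamide pool 1 the distal difference was -0.07. The SE leaves the sign of the difference undetermined.

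F1 ifosfamide pools 1 and 2 were alike over the genome but not here. Over 1205433 windows with at least 20 counts in both together, their chi-square per degree of freedom was 1.08, the lowest of the 15 pairs of F1 ifosfamide pools. In the distal stretch it was 6.18 over 47 windows and in the proximal stretch 5.91 over 23, against 1.23 over 205 windows of the rest of the segment. Between the other F1 ifosfamide pools it ran from 1.08 to 1.56 in the distal stretch. The number of windows counted per read was 1.24 in pool 1 and 1.25 in pool 2, the highest of the 18 pools.

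The shift of a pool was spread over its windows. Of 63 windows of the distal stretch with a mean of at least 5 counts, F1 control pools 3 and 5 lay above the control mean in 58 and 56. F1 control pools 1 and 2 did so in 6 and 5, and F1 ifosfamide pool 1 in 20. The other F1 ifosfamide pools did so in 54 to 61 and F2 ifosfamide pool 2 in 46. In the rest of the segment every pool lay above the control mean in 127 to 172 of 298 windows.

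Alternate windows gave nearly the same levels. In the 32 odd and 31 even windows the mean difference from F1 control was 0.75 and 0.77 in F1 ifosfamide and 0.86 and 0.89 in F2 ifosfamide. F1 ifosfamide pool 1 was at -0.08 and -0.12, and F2 ifosfamide pool 2 at 0.41 and 0.40. Adjacent windows share reads and pools, so likeness between odd and even windows was partly built in.

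The shift was present at low and high signal. In the lowest, middle and highest 21 windows by F1 control signal, at 0.098 to 0.223, 0.23 to 0.385 and 0.418 to 1.17 CPM, the F1 difference was 1.08, 0.68 and 0.72 and the F2 difference 1.12, 0.86 and 0.82. The lowest 21 windows are chosen on the same control signal that the difference is taken from. Around the mean profile of all 18 pools, the chi-square per degree of freedom of a pool's window counts had a median of 1.33 in the distal stretch, 1.31 in the proximal stretch and 1.12 over the rest. In the distal stretch it ran from 0.636 to 2.28 over the pools, and over the rest from 0.924 to 1.36.

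**Figure D4:**
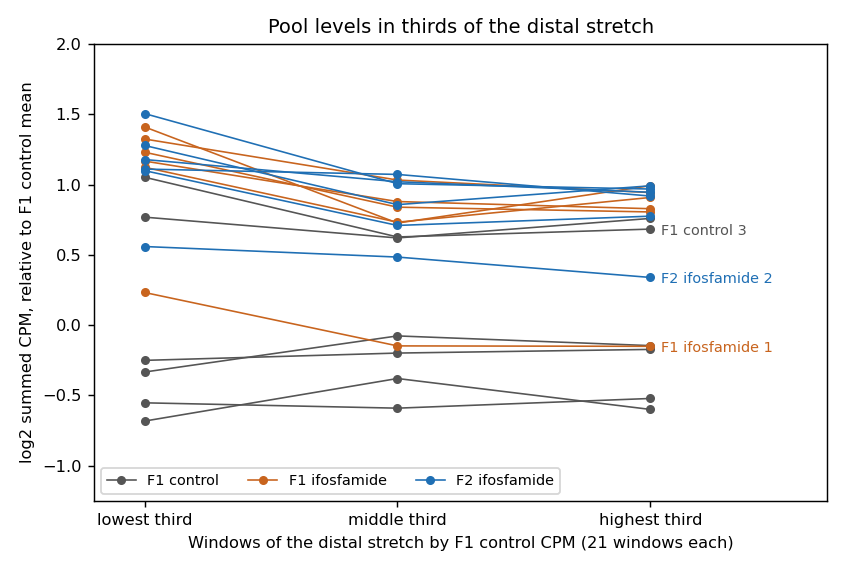
Each line is a pool, and each point its log2 summed CPM relative to the mean of F1 control in the lowest, middle and highest 21 windows of the distal stretch by F1 control CPM. F2 ifosfamide pool 2, at 0.56, 0.48 and 0.34, stays below the upper 12 pools and F1 ifosfamide pool 1, at 0.23, -0.15 and -0.15, below it in all 3 sets.

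Single windows were called by edgeR's quasi-likelihood test at an adjusted p below 0.05 over all windows tested in the genome. Against F1 control, 4 of 236 tested windows of the segment were called higher in F1 ifosfamide, where 0.00546% of 1043656 windows were, and 2 lower, where 0.0543% were. In F2 ifosfamide 14 of 209 were called higher, where 0.0186% of 919249 were, and none lower. By the same test 58 windows in F1 and 59 in F2 had an unadjusted p below 0.05 in either direction. DESeq2's Wald test called 2 in F1, both lower, and 0 in F2, among 10 and 21 windows to which it gave an adjusted p. Since these contrasts chose the segment, nothing is read from the counts. At an adjusted p of 0.05 in the authors' deposited table, F1 ifosfamide is lower in 1 of 225 tested windows of the segment. F2 ifosfamide is higher there in 3 of 220. Shares over the genome are not given for the authors' calls or the unadjusted counts, so nothing is read from them.

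The number of called windows in the segment changed when single pools were left out. Counts over the genome under these same fits are not given here, so the changes cannot be read as particular to the segment. For F1 it was 24 without F1 ifosfamide pool 1 and 16 without control pool 5. Leaving out control pool 2, 4 or 6 left 2, 0 or 1, and leaving out F1 ifosfamide pool 3, 5 or 6 left 1, 3 or 2. For F2, leaving out control pool 1 or 2 left 8 or 5, and leaving out F2 ifosfamide pool 3, 4, 5 or 6 left 7, 9, 9 or 8.

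Apart from the last windows, the comparisons with F1 control called 14 windows between them. In 13 of them control pools 3 and 5 were the highest 2 controls, in all 14 F1 ifosfamide pool 1 was the lowest of its group, and in 12 F2 ifosfamide pool 2 was the lowest of its group. All F1 ifosfamide pools lay above all controls in 0 of the 14, and all F2 ifosfamide pools in 2. The windows were called by these same comparisons, and several adjoin and share reads. Shares over other windows are not given, so nothing is read from these counts.

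The window with the most counts of these in the distal stretch, chr7:145646001-145647000, shows the levels. F1 control ran from 0.272 CPM, with a median of 0.638, to 2.20 CPM, with pools 5 and 3 at 1.94 and 2.20. F1 ifosfamide had 0.67 CPM in pool 1 and 2.05 to 2.63 CPM in pools 2 to 6. F2 ifosfamide had 1.32 CPM in pool 2 and 1.97 to 3.22 CPM in the others. The groups overlapped through control pools 3 and 5 on one side and F1 ifosfamide pool 1 on the other.

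The next window, chr7:145647001-145648000, had a log2 difference from F1 control of 1.29 (SE 0.24) in F1 ifosfamide and 1.16 (SE 0.21) in F2 ifosfamide. Its control pools ran from 0.12 CPM, with a median of 0.368, to 0.928 CPM, and F1 ifosfamide from 0.419, with a median of 1.20, to 1.48 CPM. F2 ifosfamide ran from 0.641, with a median of 1.06, to 1.18 CPM. The window at 145566001 was called in both comparisons too, at 0.95 (SE 0.22) and 1.10 (SE 0.19), and so was that at 145310001 in the proximal stretch, at 1.09 (SE 0.23) and 1.08 (SE 0.21). The F1 call at 145566001 ended under 11 alternative fits and was kept under 7. That at 145310001 ended under 7 and was kept under 10, and that at 145647001 ended under 2. None of these windows passed an adjusted p of 0.05 in the authors' deposited table, in F1 or in F2.

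In the proximal stretch the windows at 145312001 and 145339001 were called in F2 ifosfamide only, at 0.96 (SE 0.20) and 0.87 (SE 0.16), while their F1 values were 0.84 (SE 0.24) and 0.78 (SE 0.19). Their F2 and F1 ifosfamide signals differed by 0.13 (SE 0.17) and 0.09 (SE 0.14), which did not pass the test. The F2 calls at 145312001 and 145339001 ended under 7 and 3 alternative fits. At 145339001 control pools 3 and 5, at 2.24 and 2.30 CPM, lay within the 1.71 to 2.77 CPM of F2 ifosfamide, and the other controls had 0.542 to 0.897 CPM.

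Among the remaining distal windows called in F2 ifosfamide, that at 145591001 had no overlap with the controls. Its control pools ran from 0.156 to 0.425 CPM and F2 ifosfamide from 0.605 to 0.90 CPM, with a log2 difference of 1.30 (SE 0.23). Windows at 145565001, 145578001, 145592001 and 145668001 had F2 values of 0.83 to 1.18 and F1 values of 0.45 to 0.94. Their F2 calls ended under 10, 7, 11 and 6 alternative fits, while that at 145591001 was kept under all 17.

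The window chr7:145498001-145499000, called in both comparisons, lay outside both stretches and ordered the pools otherwise. Control pool 3 was the lowest of all 18 pools there, at 0.116 CPM, and control pool 5 the highest control, at 0.324 CPM. F1 ifosfamide had 0.196 CPM in pool 1 and 0.466 to 0.79 CPM in the others, and F2 ifosfamide ran from 0.415 to 0.696 CPM, above all controls. The window held 240 counts over the 18 pools, between neighbours with 38 and 109. Its F1 call ended under 8 alternative fits and was kept under 9, and its F2 call ended under 9 and was kept under 8. In the authors' deposited table it passed an adjusted p of 0.05 in F2 only.

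F2 ifosfamide was tested against F1 ifosfamide over 1062540 windows. In the segment 6 of 255 tested windows were called, all higher in F2 ifosfamide, where 1.25% of windows over the genome were called higher. None was called lower, and 32 had an unadjusted p below 0.05 in either direction. DESeq2's Wald test called 2 of 88, and leaving out F1 ifosfamide pool 1 raised the 6 to 10. Shares over the genome are not given for these counts, so nothing is read from them.

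A pair of adjoining windows in the distal stretch rose further in F2 than in F1 ifosfamide. At 145600001 the signal was 0.531 CPM, with a median of 0.855, to 1.28 CPM in F1 ifosfamide and 0.855 CPM, with a median of 1.81, to 2.09 CPM in F2 ifosfamide. The log2 fold change was 0.77 (SE 0.18, edgeR quasi-likelihood adjusted p = 0.00626). At 145601001 F1 ifosfamide ran from 0.307, with a median of 0.851, to 1.37 CPM and F2 ifosfamide from 0.819, with a median of 1.70, to 1.96 CPM.

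That second window gave 0.82 (SE 0.19, edgeR quasi-likelihood adjusted p = 0.00607). In both windows F2 ifosfamide pools 3 to 6 lay above every F1 pool of either lineage, and pools 1 and 2 lay among them. Both calls ended with DESeq2's Wald test, at adjusted p = 0.143 and 0.205.

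A pair of windows before the proximal stretch was also higher in F2 than in F1 ifosfamide. They started at 145071001 (0.59, SE 0.15, adjusted p = 0.0185) and 145262001 (0.58, SE 0.17, edgeR quasi-likelihood adjusted p = 0.0475). The F1 control mean lay between the ifosfamide groups in both. It was 1.84 CPM at 145071001, against 1.39 in F1 and 2.13 in F2 ifosfamide, and 0.950 CPM at 145262001, against 0.779 and 1.17. F1 ifosfamide ran from 0.933, with a median of 1.20, to 2.22 CPM at 145071001 and F2 ifosfamide from 1.68, with a median of 2.05, to 2.64 CPM. The groups overlapped there through F1 ifosfamide pool 2. At 145262001 F1 ifosfamide ran from 0.435 to 1.06 CPM and F2 ifosfamide from 0.989 to 1.25 CPM, so they overlapped too. The call at 145071001 ended without any 1 of F1 ifosfamide pools 3, 4 and 6 or F2 ifosfamide pools 3, 4 and 5, with log2 fold changes of 0.50, 0.55, 0.54, 0.53, 0.57 and 0.52, and with DESeq2's Wald test, at 0.60 and an adjusted p of 0.0532. The call at 145262001 ended under 13 alternatives, DESeq2's Wald test among them, and with windows per read as a covariate its log2 fold change was 0.57.

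**Figure D5:**
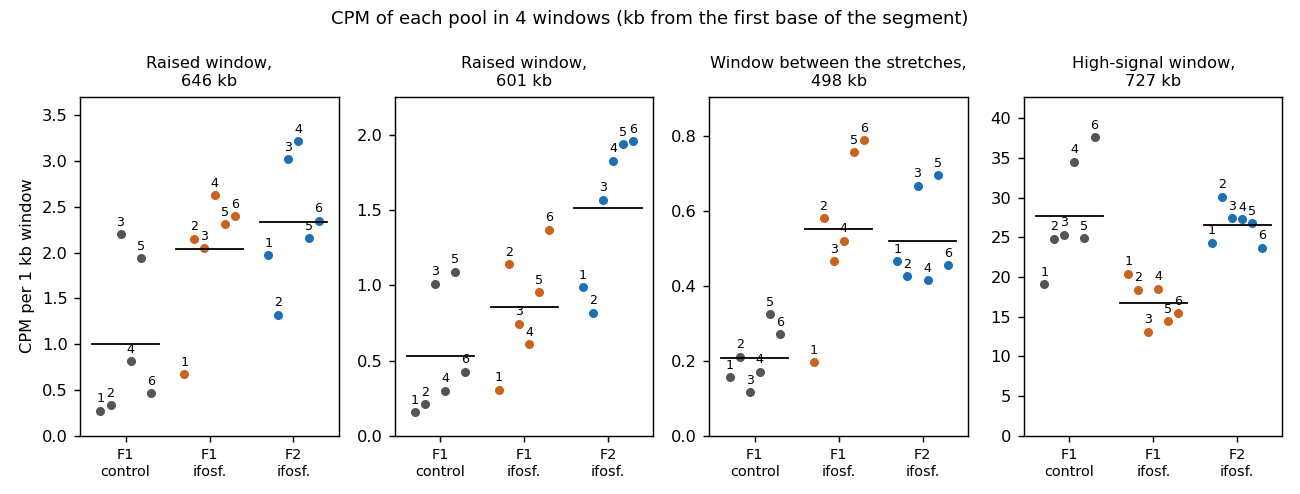
CPM of each pool, numbered within its group, in 4 windows placed by their distance from the first base of the segment, with group means as lines and each axis starting at 0. The window at 646 kb shows the levels of the raised stretches, that at 601 kb the higher F2 ifosfamide pools 3 to 6, that at 498 kb control pool 3 as the lowest pool, and that at 727 kb F1 ifosfamide below F2 ifosfamide without overlap.

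The last windows with counts behaved differently from both stretches. The windows at 145727001 and 145728001 had 12850 and 16999 counts over the 18 pools, between neighbours with 66 and 23, and the last 3 windows held 12.4% to 31.2% of a pool's counts in the segment. They were the 2 windows of highest F1 control signal in the segment. The next 3, at 145247001, 145188001 and 145258001, lay before the proximal stretch, ran from 1.97 to 3.00 CPM in F1 control, and were called in none of the 3 comparisons.

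At 145727001 F1 control ran from 19.1 CPM, with a median of 25.1, to 37.6 CPM. F1 ifosfamide ran from 13.1, with a median of 16.9, to 20.4 CPM, and F2 ifosfamide from 23.7, with a median of 27.0, to 30.1 CPM. F1 and F2 ifosfamide did not overlap, while F1 control overlapped both. F2 was higher than F1 ifosfamide by 0.67 (SE 0.12, edgeR quasi-likelihood adjusted p = 0.000178), and at 145728001 by 0.68 (SE 0.12, adjusted p = 0.000208). Both calls were kept by the other fits tried, DESeq2's Wald test and the leaving out of each pool included.

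Summed over the last 3 windows, a stretch set apart after its values were seen, the F2 minus F1 ifosfamide difference was 0.69 (SE 0.11). The groups already did not overlap at 145727001 and 145728001, which held most of its counts. The exact permutation p of 0.00217, the smallest that 924 splits can give, follows from that choice and tests nothing further. Against F1 control, F1 ifosfamide was lower by a log2 difference of -0.68 (SE 0.19) and F2 ifosfamide differed by 0.01 (SE 0.17). The order of the control pools there was unlike that in the raised stretches. Pools 6 and 4 were highest, at 87.3 and 83.7 CPM, pool 1 lowest, at 42.2 CPM, and pools 3, 5 and 2 lay at 56.9, 56.9 and 55.2 CPM.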

How the data were processed

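MeDIP-seq signal of sperm was analysed in 18 of the 34 libraries in the labels (6 pools each of F1 control, F1 ifosfamide and F2 ifosfamide). The remaining 16 libraries were not analysed here. The submitters' processing notes name Bowtie2 and SAMtools, Trimmomatic and FastQC, and edgeR, with build Rnor_6.0 and no version of a tool. The deposited tables hold the authors' counts per 1 kb window. RPKM values deposited by the authors served only to recover reads per library. The authors' deposited log2 fold changes and p-values were turned to ifosfamide over control and only set beside the fit made here.

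Counts were fitted over all windows with edgeR 4.0.16 in R 4.3.3 (TMM normalization, filterByExpr with a minimum count of 10, quasi-likelihood test on the 12 pools compared, Benjamini-Hochberg adjustment). Bins of 10 kb with under 20 control counts got no ratio. A level is the log2 summed CPM of a stretch, and levels of F2 and F1 ifosfamide were compared by exact permutation. DESeq2 1.42.0, other filters, scalings and bins and the leaving out of each pool were the alternatives. The deviations of same-numbered pools correlated at -0.23 to 0.11. The same number was the best match only for replicates 1 and 4 of F2 ifosfamide against F1 control, so no pairing was used.

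Named windows are those called in any of 3 comparisons, the 5 of highest F1 control signal, and the first and last of the distal stretch, at 145550001 and 145679001, which had 0 counts in all pools. The segment, its rules and its lists were chosen with earlier results of these data known, and the proximal stretch and the last 3 windows were set apart after their values were seen. For F1 ifosfamide against F1 control, simulation with 200 changed windows among 1043656 gave back 5.97% of those changed 1.5-fold, 50.7% of those changed 2-fold and 89.4% of those changed 3-fold. The rule for the longest run found a simulated stretch exactly in 50 of 50 segments. These had counting error only, no spread between pools, no windows set empty, and a single even 1.5-fold stretch with ends on bin edges. The real segment differs in each of these, so the simulation does not measure how well its extent is placed.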

Additional observations from a re-analysis of the deposited data

Results flagged for a closer look

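Groups of 6 pools were examined for a pool far from the others, as the gap to the nearest pool divided by the range of the group, with a critical value of 0.625. Chance passes about 1 group in 20 where groups are independent, and 7 of 66 groups passed. Windows inside a stretch share its pools and part of its level, so these groups are not independent and the shares cannot be compared. In the distal stretch F1 ifosfamide pool 1 lay below its group (0.896) and so did F2 ifosfamide pool 2 (0.631). In the proximal stretch F1 ifosfamide pool 1 did (0.701). Among single windows, F1 ifosfamide pool 1 stood apart at 145566001 (0.708) and 145646001 (0.704), F2 ifosfamide pool 2 at 145647001 (0.638) and F2 ifosfamide pool 5, the lowest of its group, at 145262001 (0.63). No group of the rest of the segment or of the last 3 windows passed for its level.

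In 6 windows the ifosfamide groups of the F1 and F2 generations differed by edgeR's quasi-likelihood test, with F2 higher. The log2 fold changes were 0.59 at 145071001, 0.58 at 145262001, 0.77 at 145600001, 0.82 at 145601001, 0.67 at 145727001 and 0.68 at 145728001.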

How the results depend on the processing

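RLE size factors left all 3 counts of called windows of the segment as they were. Counts over the genome are not given for the alternatives. For F1 ifosfamide against F1 control the count of 6 was 1 when windows needed 30 counts, 10 without a filter, 10 in a fit of all 3 groups and 2 with DESeq2's Wald test, and without single pools it ran from 0 to 24. For F2 ifosfamide against F1 control the count of 14 was 0 when windows needed 30 counts, 7 in a fit of all 3 groups and 0 with DESeq2's Wald test, and without single pools it ran from 5 to 18. For F2 against F1 ifosfamide the count of 6 was 2 with DESeq2's Wald test and 4 to 10 without single pools. The stricter filter and DESeq2's adjustment also left fewer windows tested (46 and 10 for F1, 39 and 21 for F2); the cause was otherwise not tested.

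The longest raised run was 70 kb with 5 kb bins, in the proximal stretch, and 180 kb with 20 kb bins, and 130 kb otherwise, also without any single pool. The F1 level difference from control ran from 0.65 to 0.94 without single pools, the F2 difference from 0.76 to 1.02 and the F2 minus F1 ifosfamide difference from -0.07 to 0.20. The last also changed sign, to -0.06, when scaled to the segment outside the distal stretch, which includes the last 3 windows that are themselves higher in F2 ifosfamide. Scaled to the segment without both stretches and those windows, an alternative added after seeing the data, it was 0.08. No version passed the test. A replicate block, though the numbers do not pair the pools, gave 8, 16 and 5 called windows in that order, and a level difference of 0.11 between F2 and F1 ifosfamide (exact permutation p of 0.625). No result changed sign and passed its threshold on either side. Depth limits single windows, since 230 windows with counts had a mean under 5.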

Other observations

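Over the genome, the bin whose 18 pools lay nearest to the levels of the distal stretch, outside the segment, was on the X chromosome at chrX:137340001-137350000. This search was added after the data were seen and covers 206004 bins of 10 kb with at least 1000 counts, each set relative to its F1 control mean. Likeness was measured as the root mean square difference from the distal stretch over the 18 pools, and the points share their libraries. The X bin differed by 0.244 on the log2 scale, and only 6 bins of the segment were nearer, while the median bin differed by 0.801. The next outside bin, at 11960001 on chromosome 1, differed by 0.442.

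In the X bin, with 1132 counts, F1 control pools 3 and 5 were at 0.79 and 0.78 and the other controls at -0.74 to -0.17. F1 ifosfamide pool 1 was at -0.44 and pools 2 to 6 at 0.57 to 1.07, and F2 ifosfamide ran from 0.50 to 1.05, with pool 2 at 0.55, above pool 6. That the pools fell much as in the raised stretches of chromosome 7 follows from the search, which picked the bin on these same values. Nothing further is read from it. F2 ifosfamide pool 2 did not stand apart there. The bins on either side had mean differences from F1 control of 0.13 and -0.01 in F1 ifosfamide and 0.25 and 0.27 in F2 ifosfamide, and an SD over the controls of 0.16 and 0.14 against 0.64 in the bin itself. With a minimum of 500 counts the same X bin was nearest, and with 2000 counts it was not included and the bin on chromosome 1 was nearest.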
